A study of Mus musculus with 3 samples.

Results

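Annexins, S100 proteins and galectins are 3 families of proteins that bind calcium or sugars at membranes, in the cytosol and outside the cell, and their transcripts were read here in the mesenchymal precursors of mouse back skin. All probes whose symbol in the deposited table begins with Anxa, S100 or Lgals followed by a family member's letter or number were taken, which gave 44 of the 25697 probes on the array and 38 of its 18120 gene symbols. They comprise 15 probes for 12 annexin genes, 15 probes for 15 S100 genes and 12 probes for 9 galectin genes. The same rule also caught 1 probe each for Lgals3bp and S100pbp, whose proteins bind a galectin or an S100 protein without belonging to either family. Every embryo had the genotype Engrailed1Cre/+;R26R/+, that is, Cre recombinase from the Engrailed1 locus together with a Cre reporter at Rosa26, and was taken at embryonic day 12.5. Dorsal dermal fibroblast progenitors of 5 embryos were collected by laser capture, their RNA was combined before amplification with an Ambion kit, and this 1 pool was read on 3 Illumina MouseRef-8 v2.0 bead arrays. Whether the Cre reporter guided the capture is not given in the sources used here. Each value of n = 3 therefore counts repeat measurements of a single pool, and its SD holds no variation between embryos. No other genotype, stage or tissue was measured, so no contrast between conditions and no p-value for one could be made.

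Annexins attach to acidic phospholipids when calcium rises and take part in vesicle traffic, membrane repair and cell surface proteolysis. S100 proteins are small EF-hand calcium sensors that act by docking onto partner proteins, among them several annexins. Galectins bind beta-galactoside sugars and crosslink glycoproteins of the cell surface and the extracellular matrix. In skin, members of all 3 families are known from fibroblasts, epidermis and immune cells alike, and most mouse S100 genes lie in the chromosomal region that also holds the genes of the epidermal barrier.

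The RefSeq promoter table, built on GRCm38.p6, held at least 1 window for 29 of the 38 member genes. Shown are the 200 bases before the transcription start of 4 genes on the plus strand, chosen after their values were seen. S100a11, whose product binds annexins, and Anxa2, whose product binds an S100 protein, were read far above background, whereas S100a8 and S100a4 were read near it. Capitals mark matches to TGANTCA, the binding motif of AP-1 factors, to GGGCGG, the GC box, and to TATAAA, each searched on both strands.
S100a11, chr3:93520296-93520495: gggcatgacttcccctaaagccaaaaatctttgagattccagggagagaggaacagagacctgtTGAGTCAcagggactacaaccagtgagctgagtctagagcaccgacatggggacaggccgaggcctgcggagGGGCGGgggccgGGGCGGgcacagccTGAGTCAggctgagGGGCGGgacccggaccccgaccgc
Anxa2, chr9:69453483-69453682: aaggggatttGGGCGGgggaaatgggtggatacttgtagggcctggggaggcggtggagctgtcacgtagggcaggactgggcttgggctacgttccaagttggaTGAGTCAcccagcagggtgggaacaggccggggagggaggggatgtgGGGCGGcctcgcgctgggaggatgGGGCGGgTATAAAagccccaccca
S100a8, chr3:90668871-90669070: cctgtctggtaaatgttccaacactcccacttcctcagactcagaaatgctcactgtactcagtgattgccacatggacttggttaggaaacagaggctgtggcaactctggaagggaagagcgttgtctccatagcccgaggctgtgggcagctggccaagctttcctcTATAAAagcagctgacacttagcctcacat
S100a4, chr3:90603570-90603769: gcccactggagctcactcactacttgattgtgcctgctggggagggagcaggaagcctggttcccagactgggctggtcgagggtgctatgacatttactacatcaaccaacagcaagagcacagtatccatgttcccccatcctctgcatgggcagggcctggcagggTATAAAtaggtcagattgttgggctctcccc

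The S100a11 sequence held TGAGTCA at 136 and 38 bases before the start and GGGCGG at 64, 52 and 24 bases before it. In the Anxa2 sequence TGAGTCA began 95 bases before the start, GGGCGG at 190, 48 and 24 bases and TATAAA at 17 bases. The S100a8 and S100a4 sequences held neither of the first 2 motifs and carried TATAAA at 30 and 31 bases. Over the 250 bases before the start, 6.75% of all 32851 windows in the table matched TGANTCA, 32.7% matched GGGCGG, 12.4% matched TATAAA and 1.16% matched both TGANTCA and GGGCGG. Of the 29 member genes 4 matched the first (Anxa2, Anxa10, S100a11 and S100a16), 10 the second and 6 the third. TGANTCA and GGGCGG met in 1 window of Anxa2, S100a11 and S100a16. These 3 genes were all detected on the arrays, S100a16 only near background, and its other window held neither motif. The share detected among all genes with both motifs was not computed. On the other side, the detected genes Anxa5, S100a6, S100a13 and Lgals8 held none of the 3 motifs. Anxa10, which passed on no array, held TGANTCA at 2 places. Whether matches go with detection was not tested. A match describes the letters of the window only.

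Detection here means a detection p below 0.01 on each of the 3 arrays. That p is the share of 798 negative control bead types that were at least as bright, so a probe could be matched by at most 7 of them. By this rule 17 of the 44 member probes were detected (38.6%), beside 37.7 percent of all probes on the array. Counted by gene, with at least 1 detected probe, 15 of the 38 member genes were detected (39.5%), beside 43.6 percent of all genes, so the share of detected members lay near the background. By family the counts were 5 of 12 annexin genes, 6 of 15 S100 genes and 4 of 9 galectin genes, and neither of the 2 binding protein genes. On 15 of the 17 detected probes no control reached the signal on any array, which is the call at a detection p under 0.001. By gene that call took 13 of the 38 member genes, beside 39.7 percent of all genes. A further 7 genes passed on 1 or 2 arrays, and 16 on none. By probe, 9.09% of members (4 probes) passed on 1 array, beside 4.18% of all probes. Another 9.09% (4 probes) passed on 2 arrays, beside 4.09% of all, and 43.2% passed on none, beside 54% of all.

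**Figure D1:**
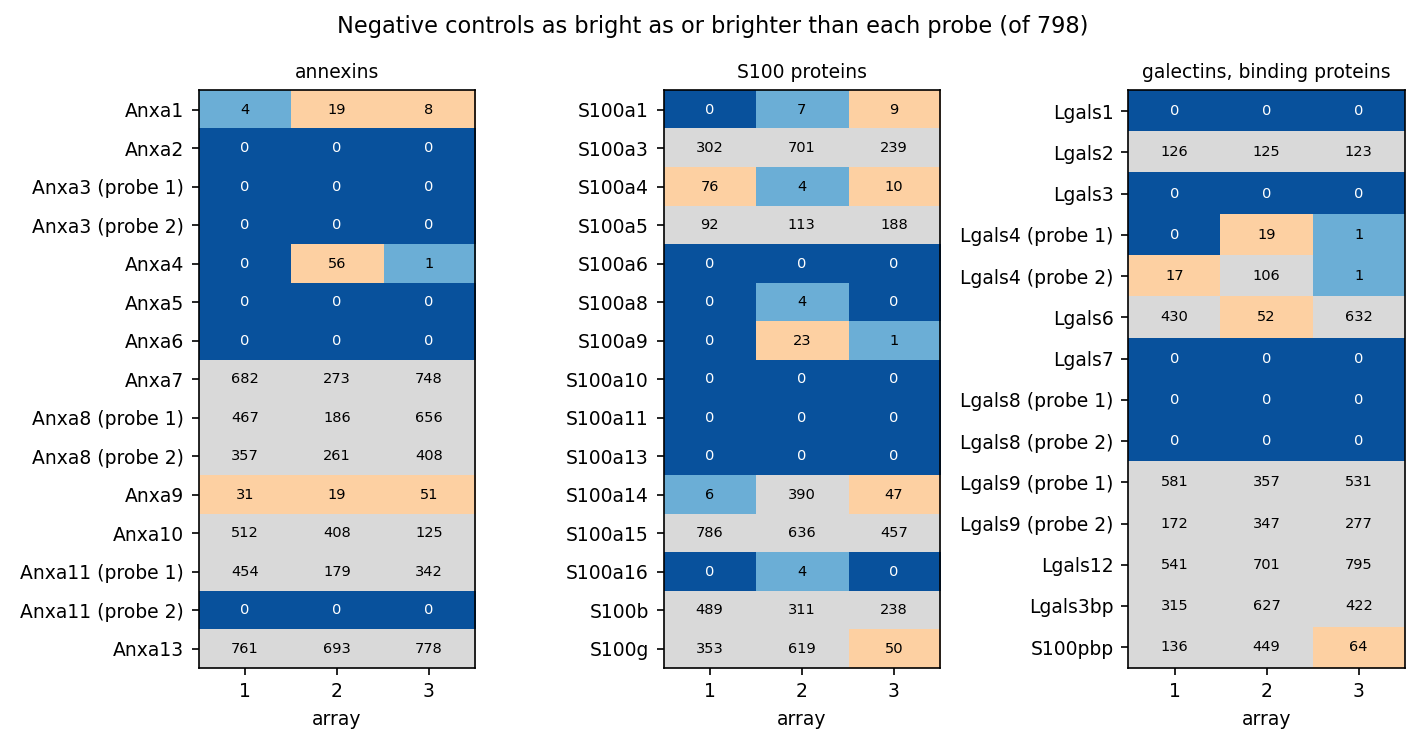
Each cell gives the number of the 798 negative controls that were at least as bright as a member probe (rows) on an array (columns), with dark blue for 0, light blue for 1 to 7, orange for 8 to 79 and grey for 80 or more. Anxa2, Anxa3, Anxa5, Anxa6, S100a6, S100a10, S100a11, S100a13, Lgals1, Lgals3, Lgals7 and Lgals8 and the second Anxa11 probe show 0 in every cell, while Anxa7, Anxa13 and Lgals12 stay grey throughout.

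Among the annexins, Anxa2, Anxa3, Anxa5, Anxa6 and Anxa11 were detected. Signals below are the authors' normalized values in arbitrary units, and since each probe has its own brightness they are not ranked between genes. Anxa2 encodes the annexin that, paired with S100A10, holds plasminogen and its activator at the cell surface, and read 13003, 16425 and 12353 on arrays 1 to 3, a mean of 13927 ± 2188 (SD, n = 3). Array 2 stood above the other arrays, which differed by less. Anxa5, whose protein binds exposed phosphatidylserine and is the usual stain of dying cells, read 1899, 2096 and 1798. Anxa6, an annexin with a duplicated core that is linked to endocytosis and cholesterol traffic, read 1086, 975 and 969. Anxa3 was read by 2 probes, at 1119, 1075 and 1038 by the first and at 616, 595 and 577 by the second. Both Anxa3 probes were highest on array 1 and lowest on array 3, over a narrow range. The probes for Anxa11, a partner of the calcium sensor ALG-2, disagreed. The second read 87.1, 73.2 and 67.4 with no control above it on any array, whereas the first read -3.74, 11.4 and -1.60 and passed on none.

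Anxa1 and Anxa4 lay at the edge of detection. Anxa1, the glucocorticoid-induced annexin that restrains inflammation, read 26.5, 36.3 and 31.1, with 4, 19 and 8 controls at or above it, so that array 3 missed the threshold by 1 control. Anxa4, an annexin best known from epithelia, read 52.2, 25.3 and 41.8, with 0, 56 and 1 controls at or above it, and failed on array 2. The remaining annexins, Anxa7, Anxa8 (2 probes), Anxa9, Anxa10 and Anxa13, passed on no array. Anxa9 came closest, at 16.2, 33.3 and 12.0 with 31, 19 and 51 controls at or above it. Anxa7, the annexin synexin, read -9.02, 5.09 and -13.3. The Anxa8 probes read -4.07, 10.9 and -9.93 and, in the same order of arrays, -1.77, 5.85 and -3.48. Signs differed between arrays for both genes. Anxa13, known from gut and kidney epithelium, read between -16.4 and -12.3, and Anxa10, known from the stomach lining, between -5.14 and 6.34.

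The genes around the annexin A2 and S100A10 complex were read from a list of 15 measured genes. Of these 6 were detected, a share near the 43.6 percent of all genes. Ahnak, the giant scaffold protein bound by that complex, lay at 1474 ± 25.8 (SD, n = 3), the plasminogen receptor gene Plgrkt at 526 ± 34.4, the urokinase gene Plau at 194 ± 7.57 and Serpine2, which inhibits urokinase, at 414 ± 3.36. The antiplasmin gene Serpinf2 (64.7 ± 7.51) and Dysf (59.0 ± 17.9), which encodes the membrane repair protein dysferlin, were detected close to background. Not detected were the tissue plasminogen activator gene Plat (3.19 ± 9.15), the urokinase receptor gene Plaur (11.8 ± 0.397) and the plasminogen gene Plg (7.29 ± 5.34). Of 13 measured genes for membrane repair and for calcium binders with C2 domains, 5 were detected, again near the share of all genes. These 5 were Dysf, Cpne2 (94.3 ± 18.5), Cpne8 (45.5 ± 12.6), Syt11 (1287 ± 42.1) and Esyt1 (408 ± 31.2). Dysf, Cpne8, Syt11 and Serpinf2 were each detected by 1 of 3 probes, and Ahnak by 1 of 2. Otof (-4.13 ± 7.21), Trim72 (25.6 ± 10.2), Cpne1 (48.2 ± 26.3) and Cpne3 (-11.1 ± 5.72) were not detected, although Trim72 and Cpne1 passed on 2 arrays.

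Of the S100 genes, S100a6, S100a8, S100a10, S100a11, S100a13 and S100a16 were detected. S100a10, the partner of annexin A2, read 1424, 1368 and 1359 on arrays 1 to 3. S100a11, which docks onto annexin A1 and annexin A2, read 5578, 5640 and 5589, a mean of 5602 ± 32.8 (SD, n = 3). On the authors' scale neither probe spread by much, and the arrays were nearly level. S100a6, known as calcyclin, read 341, 415 and 271, and S100a13, which assists the release of fibroblast growth factor 1, read 330, 396 and 320. Both were highest on array 2, and S100a6 also separated array 1 from array 3. S100a16 read 45.9, 53.8 and 61.4 and S100a8 66.7, 50.8 and 64.7, each with 4 controls at or above it on array 2 and none on the others. These were the 2 detected genes not called at the stricter detection p of 0.001.

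S100a4, also known as fibroblast-specific protein 1 and widely used as a fibroblast marker, passed on array 2 alone. Its values were 10.1, 50.1 and 26.8, with 76, 4 and 10 controls at or above it. S100a9, whose product pairs with S100A8 to form calprotectin, read 38.6, 31.5 and 44.0 and failed on array 2 with 23 controls at or above it. S100a1, known from striated muscle, read 47.5, 44.4 and 29.1 and failed on array 3 with 9. S100a14, an epithelial S100 gene, read 24.1, 0.113 and 12.7 and passed on array 1 alone. Passing on no array were S100a3, known from the hair cuticle, at -0.476, -16.1 and 1.25, S100a5 at 8.70, 16.04 and 2.90, the array's S100a15 at -14.5, -11.2 and -4.57, S100b, and the intestinal calcium binder gene S100g at -1.69, -10.1 and 12.1. S100b, a marker of glia, cartilage and melanocytes, read -4.73, 3.23 and 1.37, with 489, 311 and 238 controls at or above it. The symbol S100a15 is an older name of more than 1 RefSeq gene, so its probe kept the name in the file.

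**Figure D2:**
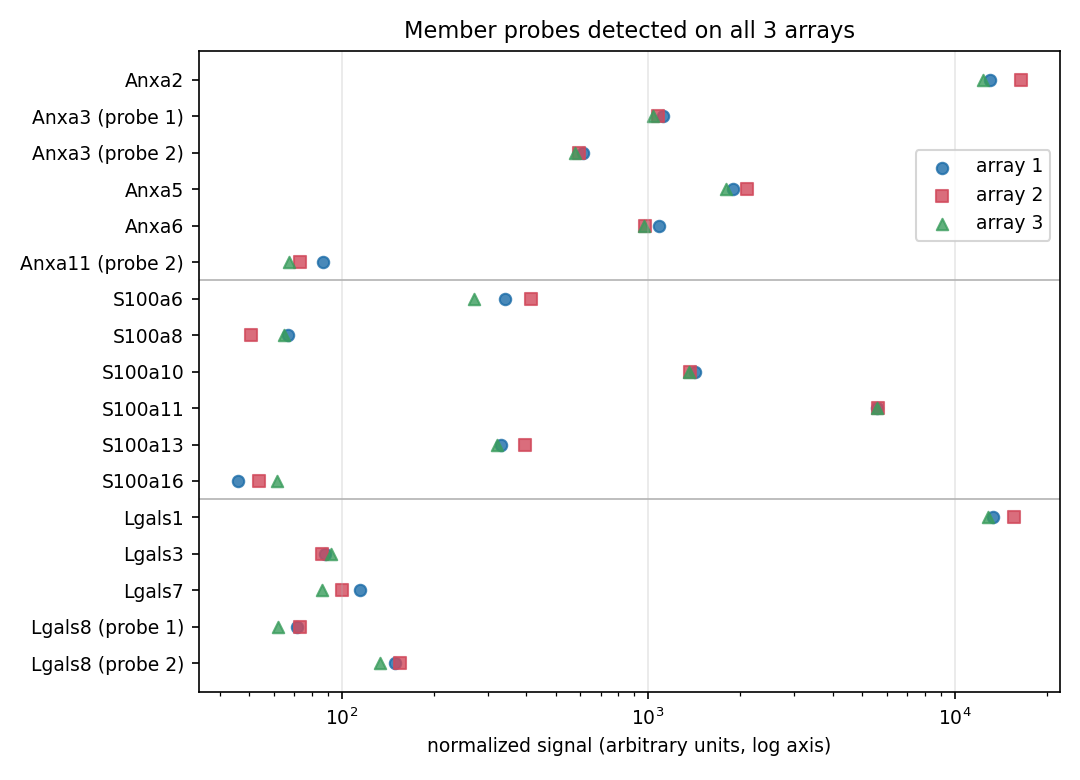
Normalized signal (log axis, arbitrary units) of the 17 member probes detected on all 3 arrays, 1 row per probe and 1 marker per array, with lines between annexins, S100 proteins and galectins. The 3 markers nearly coincide for S100a11, at 5578 to 5640, and lie apart for S100a6, at 271 to 415.

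Neutrophils and their precursors are the classical source of S100A8 and S100A9, and markers of that lineage were read in part. Of 11 such genes 2 were detected, beside 43.6 percent of all genes, namely Prtn3 at 63.8 ± 16.9 and Mmp9 at 115 ± 12.6 (SD, n = 3). The signal summed over all 11 genes, 9 of them not detected, was 205, 384 and 224 on arrays 1 to 3. Mpo (25.5 ± 18.2) passed on 1 array and Csf3r (36.2 ± 17.4) on 2, while the granule genes Elane (12.7 ± 5.73), Ngp (1.52 ± 7.99), Camp (20.4 ± 11.02), Ltf (5.70 ± 8.14) and Lcn2 (1.87 ± 12.5) passed on none. Macrophage markers were detected at 10 of 13, beside the same share of all genes, with summed signals of 1550, 1546 and 1594. Among those detected were Csf1r (164 ± 8.73) and Adgre1 (387 ± 17.2) but not Ptprc (3.46 ± 5.57). Csf1r was detected by 1 of 2 probes and Adgre1 by 2 of 3. What share of the S100a8 and S100a9 signal came from such cells was not tested. In a pooled tissue sample of this kind, few cells with much RNA and many cells with little cannot be told apart.

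Partners of the S100 proteins and other EF-hand genes were read by list, each beside the 43.6 percent detected among all genes. No difference between lists was tested. Of 6 receptor genes none was detected on all 3 arrays, including Ager (28.3 ± 7.41), which encodes the receptor for advanced glycation end products, Tlr4 (1.85 ± 11.3), Cd36 (-6.68 ± 7.82), Fpr2 (12.0 ± 7.81), Bsg (0.805 ± 10.7) and Fgfr1 (24.0 ± 4.89). Ager and Fgfr1 passed on 1 array each. Of 11 measured intracellular partners 10 were detected, with Cacybp, the calcyclin-binding protein gene, at 554 ± 18.3, Sugt1 at 279 ± 35.2, Trp53 at 244 ± 32.3 and Mdm2 at 1257 ± 101. The exception was the kinase gene Stk38 (2.34 ± 4.29). EF-hand genes outside the S100 family were detected at 17 of 27, with Calm2 at 972 ± 91.6, Calm3 at 7118 ± 1167, Calb2 at 132 ± 9.48 and Sri, which encodes sorcin, at 1055 ± 48.6. Calml3 (9.98 ± 6.44), Calb1 (-17.1 ± 8.75) and Pvalb (-7.18 ± 4.55) were not detected. Sri was detected by 2 of 4 probes, Mdm2 by 2 of 3 and Calb2 by 1 of 2.

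The position of the S100 genes was then set against these calls. Along mouse chromosome 3, in the gene order of RefSeq on GRCm38.p6, S100 genes stand at both ends of a run of barrier genes, with S100a1 to S100a9 on one side and S100a11 and S100a10 on the other. Of the 50 protein-coding genes of that run that a probe matched by name, the 12 S100 genes gave 6 detected and 4 that passed on 1 or 2 arrays, a detected share near the 43.6 percent of all genes. The 38 genes between them, mainly small proline-rich and late cornified envelope genes, gave 1 detected and 2 that passed on 1 or 2 arrays. The detected gene was Lor, which encodes loricrin, at 182, 171 and 188. Of 17 measured barrier genes on a separate list 2 were detected, Lor and Sprr2a (499 ± 17.9; SD, n = 3), while the filaggrin-like genes Flg2 (2.43 ± 8.39), Hrnr (5.30 ± 12.1), Rptn (0.839 ± 9.41) and Tchhl1 (17.5 ± 9.71) were not. Sprr2a and S100a15 match no single gene of the RefSeq table and were left out of the run. The small proline-rich genes resemble one another closely, and whether the Sprr2a probe also binds its relatives was not tested. Within the S100 genes calls were mixed along the chromosome. S100a6 and S100a8 follow each other in the run and were detected, while S100a3, S100a4 and S100a5 just before them were not. S100a1 and S100a13 lie head to head on opposite strands, their promoter windows overlap by 204 bases, and S100a13 was detected on all 3 arrays but S100a1 on 2.

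**Figure D3:**
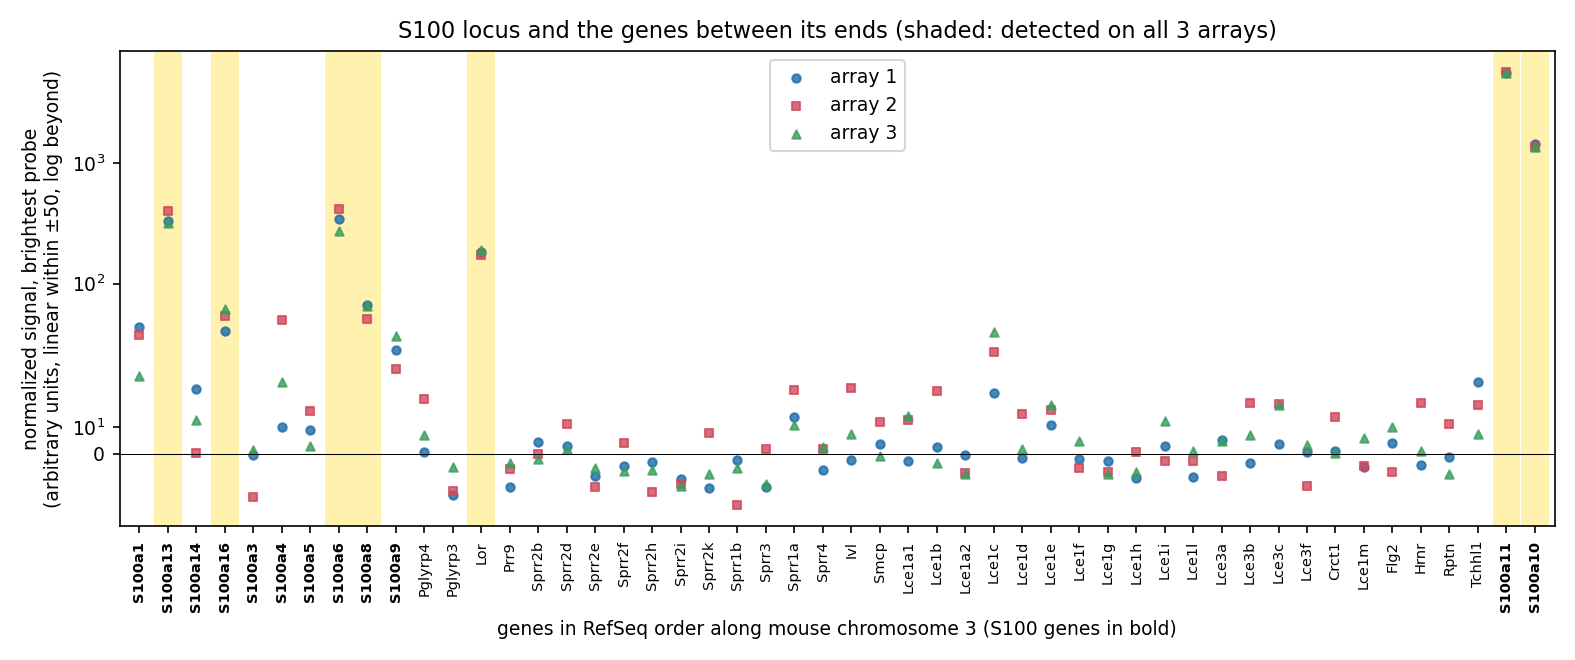
Normalized signal of each gene's brightest probe on arrays 1 to 3 (vertical axis, arbitrary units, linear within 50 of 0 and logarithmic beyond), for 50 genes in RefSeq order along chromosome 3 (horizontal axis, not to scale), with S100 genes in bold and genes detected on all 3 arrays shaded. Shading falls on 6 S100 genes at the ends and on Lor alone among the 38 genes between them.

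The promoter windows of the S100 genes on chromosome 3 were poor in CpG. The ratio of observed to expected CpG, taken as the highest over a gene's windows of 300 bases, lay under 0.6 for all 10 of these genes that had a window, with a median of 0.221, beside a median of 0.671 over 13474 array genes. Of the 10 genes 5 were detected. Over the whole array 20.7% of the 5905 genes with a ratio under 0.6 were detected and 64.4% of the 7569 genes above it. Of the 29 member genes with a window, 24 had a ratio under 0.6 and 10 of those were detected (41.7%), among them Anxa2, Anxa5, Lgals3 and Lgals8. The other 5 were Anxa4, Anxa7, Anxa9, Anxa11 and S100pbp, of which Anxa11 was detected. These shares describe the array and were not tested, since related genes are not independent of each other.

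Galectins were detected at Lgals1, Lgals3, Lgals7 and Lgals8. Lgals1, the galectin of mesenchyme and muscle, read 13382, 15668 and 12895 on arrays 1 to 3, a mean of 13981 ± 1480 (SD, n = 3), with array 2 again the highest. Lgals8, a galectin with a pair of sugar-binding domains, was read by 2 probes, at 71.7, 73.2 and 61.9 by the first and at 149, 155 and 134 by the second. Both Lgals8 probes were lowest on array 3. Lgals3, which is also the macrophage antigen Mac-2, read 88.5, 86.4 and 92.5, with the arrays close together. Lgals7, a galectin of stratified epithelia, read 115, 100.002 and 86.6. Epidermal and periderm markers stood beside it, with 8 of 11 detected, beside 43.6 percent of all genes, and summed signals of 2378, 2422 and 2555. Among those detected were Krt14 (1313 ± 58.6) and Trp63 (306 ± 22.0), but not Krt19 (12.2 ± 2.93), Perp (5.54 ± 12.1) or Sfn (3.38 ± 7.79). The part of epidermal cells in the Lgals7 signal, or of macrophages in that of Lgals3, was not tested.

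Lgals4, a galectin of the gut, failed the rule by both of its probes. The first read 34.3, 35.1 and 39.5 and failed on array 2, with 19 controls at or above it, and the second read 19.7, 16.8 and 39.0 and passed on array 3 alone. Lgals6, a mouse gene that arose as a copy of Lgals4, read -3.20, 26.0 and -9.11 and passed on no array. Its symbol matches no gene of the RefSeq table, and whether these embryos carry the gene was not tested. Since the copies are nearly identical, the signal of one gene's probe may include the other gene, which was not tested. Lgals2 (5.92, 15.5 and 6.48), Lgals9, by probes at -6.57, 1.26 and -6.53 and at 3.10, 1.82 and 0.0207, and the adipocyte galectin gene Lgals12, at -5.81, -16.1 and -19.1, also passed on none. Lgals3bp, which encodes a secreted glycoprotein bound by galectin-3, read -0.809, -10.7 and -3.82, and S100pbp read 5.23, -2.52 and 10.6. Across all 19 member probes that passed on no array, single readings ran from -19.1 to 33.3. A probe in this range has only an upper bound and was not shown to lack its transcript.

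Carriers and makers of galectin ligands were detected at 14 of 21 measured genes, beside 43.6 percent of all genes. The lysosomal glycoprotein genes Lamp1 (1708 ± 22.8) and Lamp2 (5133 ± 152), the integrin gene Itgb1 (190 ± 36.8; SD, n = 3) and the hyaluronan receptor gene Cd44 (167 ± 23.2) were among them. Of the 6 Cd44 probes only 1 was detected. Not detected were Itga5 (23.3 ± 3.34), Bsg, Cdh2 (38.3 ± 9.16) and Mgat2 (3.68 ± 12.4), the latter an enzyme of N-glycan branching. Other lectin genes were detected at 6 of 22, a share below that of all genes. These 6 were Clec2d (86.5 ± 10.8), Mrc1 (172 ± 14.8), the pentraxin gene Ptx3 (472 ± 24.0), Calr (87.6 ± 9.68), Lman1 (785 ± 14.5) and Lman2 (480 ± 51.6). Clec3b (7.82 ± 6.49), Clec4a2 (4.62 ± 9.81), Clec4e (14.3 ± 5.70) and Clec7a (19.5 ± 11.6) were not detected.

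All 11 markers of dermal mesenchyme were detected, among them Twist2, Pdgfra, Dcn and Lum. They were picked after their values were seen, so this count is no check of the pool's label. Markers of other cells were detected at 7 of 10 for cartilage, 7 of 9 for skeletal muscle, 6 of 8 for endothelium, 6 of 7 for erythroid cells, 5 of 8 for neurons and 3 of 8 for Schwann cell, neural crest and melanoblast genes, beside 43.6 percent of all genes. The last of these shares lay below that of all genes. Summed over the list, signals on arrays 1 to 3 were 22700, 23430 and 21810 for dermal mesenchyme. They were 88390, 143000 and 88450 for erythroid cells, 13950, 16440 and 13270 for skeletal muscle and 9899, 10830 and 9527 for cartilage. Sums for endothelium, neurons and the Schwann cell list were lower. Probes differ in brightness, so the sums are no shares of cells. The part of such cells in the member signals was not tested.

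The spread between arrays was small for most members. Over the 17 detected member probes the SD of log2 signal had a median of 0.13 and ran from 0.0084 (S100a11) to 0.31 (S100a6), beside a median of 0.11 over all 9693 detected probes. Array 2 stood highest on 8 of the 17 (47.1%), beside 43.8 percent of all detected probes. The median difference of array 2 from the mean of arrays 1 and 3 was 0.014 on the log2 scale for members and 0.018 for all detected probes. Bright probes shared a shift. Probes of other genes within 1.25-fold of Anxa2's signal on array 1 had a median difference of 0.32 (quartiles 0.23 and 0.40, 46 probes), and those around Lgals1 likewise 0.32, so that Anxa2 at 0.37 and Lgals1 at 0.25 lay inside the range of their neighbours. S100a11 at 0.014 lay below the lower quartile of its 165 neighbours, whose quartiles were 0.078 and 0.25.

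Of the 17 member probes 10 lay between the quartiles of probes of like brightness, 3 below (S100a11, Anxa6 and S100a8) and 4 above (Anxa5, S100a6, S100a13 and the second Lgals8 probe), and quartiles by construction leave about as many probes outside as inside. S100a6 at 0.45 and S100a13 at 0.28 lay above the upper quartile of probes of like brightness, which was 0.10 for each. The 3 other scalings compared were quantile normalization, neqc (a background correction followed by quantile normalization) and 50 added to the normalized signal. Both genes kept their direction under these 3, at 0.36 to 0.41 for S100a6 and 0.22 to 0.26 for S100a13. S100a8 at -0.37 lay below the lower quartile of its neighbours, which was -0.18, and stayed negative at -0.34 to -0.19. The difference of Anxa2 fell from 0.37 to 0.059 under both quantile normalization and neqc. Of the 17 probes 13 kept the sign of this difference under all 4 scalings (the authors' and these 3), positive for 6 and negative for 7. A negative sign puts array 2 below the mean of arrays 1 and 3, not always lowest. Both Anxa3 differences, at -0.00388 and -0.00102, were very small. For all detected probes this count was not made, so 13 of 17 has no background beside it. The scalings also overlap, since 1 adds 50 to the authors' values and neqc ends in quantile normalization. Scaling to a common median with no offset removed is not among the 4. It moved the median difference over all detected probes to -0.864, and signs of single members under it are not given. Within the 4 scalings the sign turned for Lgals1, Lgals7, S100a11 and S100a16. For S100a11 the difference went from 0.014 to -0.166 under quantile normalization and -0.168 under neqc, so its level arrays hold on the authors' scale. With 3 measurements of 1 pool these differences describe the arrays and were not tested.

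**Figure D4:**
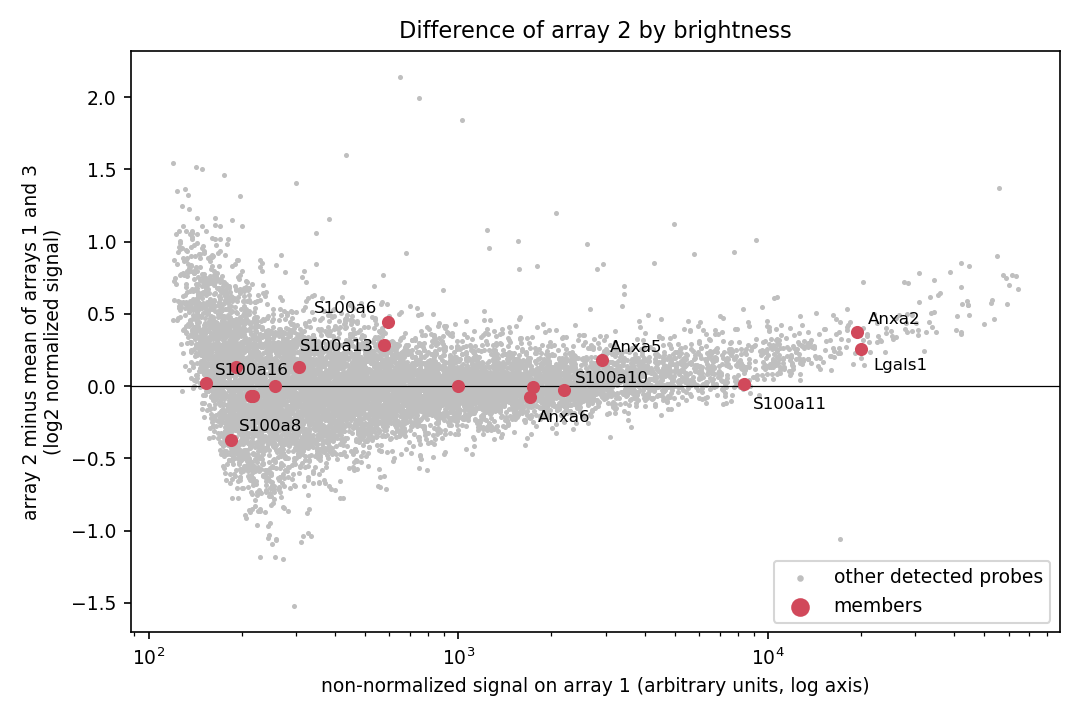
Difference in log2 normalized signal between array 2 and the mean of arrays 1 and 3 (vertical axis) against non-normalized signal on array 1 (horizontal log axis, arbitrary units) for the 17 detected member probes (red) and the other detected probes (grey). Anxa2 and Lgals1 lie within the rise of the grey points at high signal. S100a11 lies below the grey points' centre, and S100a6 and S100a13 lie above it.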

How the data were processed

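RNA of dorsal dermal fibroblast progenitors was measured on 3 bead arrays that repeat 1 pool. Trizol extraction, DNase I treatment and an RNeasy clean-up preceded labelling, per the labels' protocols, and the RNA was turned into biotinylated cRNA with an Ambion MessageAmp kit. The authors deposited non-normalized signal intensity, normalized intensity and, per the file headers, a detection p-value for each probe and array. Of the scanner software and the normalization, nothing is stated in the sources used here. The normalized intensity of each array equalled its non-normalized intensity times 1 slope (0.672, 2.07 and 0.699 for arrays 1 to 3) plus 1 offset (-57.2, -152 and -63.5), and the series value table was identical to it, linear and not centred. Detection p-values moved in steps of 1 in 798.

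Members were matched by file symbol and joined between tables by probe. Symbols of other genes were updated through RefSeq (GRCm38.p6), giving 17849 genes, with 974 probes keeping the file's name. The brightest probe, by mean normalized signal, stood for a gene. Detection at a p under 0.01 on all 3 arrays, SD and differences of log2 signal were computed with Python 3.11.15 and numpy 2.4.6. The procedures were tested on simulated data. Alternatives were detection p under 0.05 and under 0.001, fewer arrays, every probe of a gene, each array left out, and other scalings, among them neqc of limma 3.58.1 with background taken from the detection p-values, which was chosen after seeing the data. The members and gene lists were chosen with earlier results of these data known. From each comparison list the text names the leading 4 genes on either side of the detection call, or all where a side has 6 or fewer, except for some genes that are not reported here. Markers of cell types are examples picked after their values were seen. List members and family members with no probe under their name, such as S100z, were not analysed here. Probe sequences were not used here. The lowest normalized signal that passed was 23.1, 44.3 and 31.2 on arrays 1 to 3.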

Additional observations from a re-analysis of the deposited data

How the results depend on the processing

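With each array left out in turn, 17 to 20 member probes, 15 to 18 member genes, 5 to 6 annexin genes, 6 to 7 S100 genes and 4 to 5 galectin genes were detected, beside 43.7%, 47.0% and 44.2% of all genes without arrays 1, 2 and 3, and the median SD of log2 signal ran from 0.0663 to 0.146. Without array 2, Anxa4, Lgals4 and S100a9 were added, and without array 3, S100a1. A detection p under 0.05 gave 19 member genes and under 0.001 gave 13, beside 48.5% and 39.7% of all genes. When 1 array sufficed, 22 member genes were detected, beside 51.7% of all genes, and the S100 count rose from 6 to 10, by S100a1, S100a4, S100a9 and S100a14. With every probe of a gene required, 14 member genes were detected, beside 32% of all genes. Listed genes then fell to 3 of 15 around annexin A2, 2 of 13 for membrane repair and 12 of 27 EF-hand genes. They fell to 9 of 11 intracellular S100 partners, 11 of 21 galectin ligand genes and 6 of 13 macrophage markers. The lectin and barrier gene lists kept their counts. Scaling the non-normalized signal to a common median, with no offset removed, gave a median SD of 0.408 and a median difference of array 2 of -0.697 for members, where all detected probes shifted to -0.864. That scaling applies no offset, whereas the authors' values hold a negative offset on each array. Why the difference moved was not tested. Quantile normalization and neqc gave median differences of -0.0176 and -0.026, within the spread between arrays. No paired analysis was possible because the series holds 1 group. The signal over background limits what can be said of members near the threshold: of the 1052 probes passing on exactly 2 arrays 84.3% failed on array 2, as did 3 of the 4 such members.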
